A study of Homo sapiens with 18 samples.

Results

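The collagen chains were the 73 array probes, of 47323 in the table, whose annotated gene symbol is COL, a type number, A and a chain number. They stand for 43 genes, of 20046 genes named on the array, 18 of them with several probes and 25 with 1 probe. They were taken by name and not by a cut on any measured value, but with earlier results of these data known. The fibrillar class has 18 probes for 11 chains, the basement membrane class (type IV) 9 probes for 6 chains, and the other classes 46 probes for 26 chains. The other classes comprise 15 probes for 10 fibril-associated (FACIT) chains, 13 probes for 5 beaded filament (type VI) chains and 6 probes for 3 short-chain (types VIII and X) collagens. They also comprise 3 probes for 2 multiplexins (types XV and XVIII), 1 probe for the anchoring fibril chain COL7A1, 5 probes for 3 transmembrane chains and 3 probes for the 2 chains without a class here, COL26A1 and COL28A1.

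HCC827, a lung adenocarcinoma line of human origin with a mutant EGFR gene, was profiled for messenger RNA on Illumina arrays in a study of epithelial to mesenchymal transition (EMT). The 18 arrays form 6 groups of 3. TGFB1 cells received that growth factor, for 30 days by the sample labels and for 72 hours at 10 ng/mL by the series text, and were compared with parental cells, which carried no virus. SNAIL cells carried the V5-tagged transcription factor SNAIL (gene symbol SNAI1) in the lentiviral vector pLX303 and were compared with cells carrying lacZ in that vector. shCDH1 cells carried a short hairpin RNA against CDH1, the E-cadherin gene, in the vector pLKO1 and were compared with cells carrying a non-target hairpin (shNT) in that vector. All groups share the one cell line, and the labels do not say that the 3 arrays of a group came from separate cultures, so the p-values measure a spread that may be technical. The sample titles carry array numbers 1 to 3, but the descriptions carry 1 for a pair of arrays and 2 for the other in each group, so a pair with 1 description number may share a culture.

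Collagens are secreted or membrane-bound proteins built from alpha chains that wind into a common helix, each chain being the product of its own gene. Fibrillar collagens form the fibres of connective tissue, type IV collagens form the sheet beneath epithelia, and type VI collagens form beaded filaments that lie between them. Epithelial cells are known mainly for basement membrane chains, and gain of fibrillar collagen is a textbook trait of EMT.

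Values are log2 levels after background correction and quantile normalization, on which every array has a median of 6.82. Median raw intensity ran from 152 to 236, and Pearson's r across probes was 0.989 to 0.994 within a group, against 0.930 to 0.989 between groups. A probe counted as above background in a group when all 3 arrays exceeded the 95th percentile of 437 olfactory receptor probes, which lay between 6.90 and 7.06. CDH1 averaged 8.60 in shCDH1 cells and 13.00 in shNT cells, 7.50 in SNAIL cells and 13.12 in lacZ cells, and 12.69 in TGFB1 cells and 13.03 in parental cells. The 7 epithelial markers of the line were all above background in the TGFB1, parental, lacZ and shNT groups, and 6 of the 7 were in the SNAIL and shCDH1 groups, where KRT19 and MUC1 were the ones at background. Of the 7, 5 were lower in TGFB1 cells, 7 in SNAIL cells and 4 in shCDH1 cells, where 10.6%, 11.6% and 10.3% of all probes were lower. Their summed linear level was 39425 to 40665 in TGFB1 cells and 61635 to 64139 in parental cells, 12008 to 12614 in SNAIL cells and 65763 to 67452 in lacZ cells, and 29825 to 33683 in shCDH1 cells and 59924 to 63866 in shNT cells. The part of these markers in the collagen results was not tested.

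A few stretches of sequence before collagen genes are shown because these chains carry the contrasts below: COL4A1 and COL4A2 share one start region, COL4A5 moved against COL4A1 in shCDH1 cells, COL5A1 was higher under all 3 treatments, and COL6A3 was high in TGFB1 cells. They are from RefSeq on GRCh38.p14, 5′ to 3′, and capitals mark CCAAT or CAGAC on either strand (so also ATTGG or GTCTG), the letters of a common promoter box and of the SMAD element of TGF-beta signalling. The first is the stretch between the starts of COL4A1 and COL4A2 at chr13:110307158-110307283, plus strand. The others are the 250 bases before the annotated start, at chrX:108439588-108439837 (plus) for COL4A5, chr9:134641553-134641802 (plus) for COL5A1 and chr2:237414165-237414414 (minus) for COL6A3.
COL4A1-COL4A2: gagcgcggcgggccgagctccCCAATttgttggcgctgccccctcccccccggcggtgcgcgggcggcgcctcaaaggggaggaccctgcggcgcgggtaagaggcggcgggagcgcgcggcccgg
COL4A5: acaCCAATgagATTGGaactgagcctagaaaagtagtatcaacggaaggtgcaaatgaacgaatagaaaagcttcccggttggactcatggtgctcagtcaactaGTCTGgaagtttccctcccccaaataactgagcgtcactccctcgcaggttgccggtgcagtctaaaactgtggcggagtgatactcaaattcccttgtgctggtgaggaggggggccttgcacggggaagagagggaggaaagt
COL5A1: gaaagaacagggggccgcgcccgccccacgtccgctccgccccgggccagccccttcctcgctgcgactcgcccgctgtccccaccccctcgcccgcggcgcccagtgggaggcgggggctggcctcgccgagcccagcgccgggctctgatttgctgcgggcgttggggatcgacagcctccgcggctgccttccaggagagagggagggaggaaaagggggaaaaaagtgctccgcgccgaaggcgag
COL6A3: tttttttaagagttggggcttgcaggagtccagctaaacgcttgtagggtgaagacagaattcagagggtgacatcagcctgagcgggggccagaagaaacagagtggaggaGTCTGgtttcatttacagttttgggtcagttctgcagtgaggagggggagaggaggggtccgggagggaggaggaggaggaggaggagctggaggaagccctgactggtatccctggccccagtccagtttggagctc

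COL4A1 and COL4A2 lie head to head with 126 bases between their starts, and COL4A6 and COL4A5 with 379 bases between theirs on chromosome X. COL4A4 and COL4A3 form a like pair on chromosome 2, with 135 bases between their starts. Promoter windows of 250 bases before to 50 after the start were matched for 31 of the 43 chains (43 windows). CAGAC occurred in 17 of these windows (39.5%), against 45.3% of all 35116 windows. CCAAT occurred in 13 (30.2%), against 34.6% of all windows. CAGGTG, the E-box letters that SNAIL binds, occurred in 5 (11.6%), against 20.6%, and TATAAA in 7 (16.3%), against 11.5%. The 5 windows with CAGGTG belonged to COL16A1, COL4A3, COL4A4, COL8A2 and COL9A2, so none of the chains printed here had those letters in its window. A match is a description of letters and not a bound site.

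More collagen probes were above background in TGFB1 and SNAIL cells than in their control cells. The share of all probes above background was not counted, so these counts are not set against the whole array. In TGFB1 cells 22 of the 73 probes were above background, against 14 in parental cells; in SNAIL cells 26 were, against 11 in lacZ cells. In shCDH1 cells 12 were above background and in shNT cells 11. Only 5 probes were above background in every group, 33 (27 chains) were in at least 1 group, and 40 were in none, with levels from 5.68 to 7.42. With a stricter background, the 99th percentile, 26 probes were above it in at least 1 group. In bulk RNA of this kind, a level cannot tell fewer expressing cells from less RNA per cell.

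**Figure D1:**
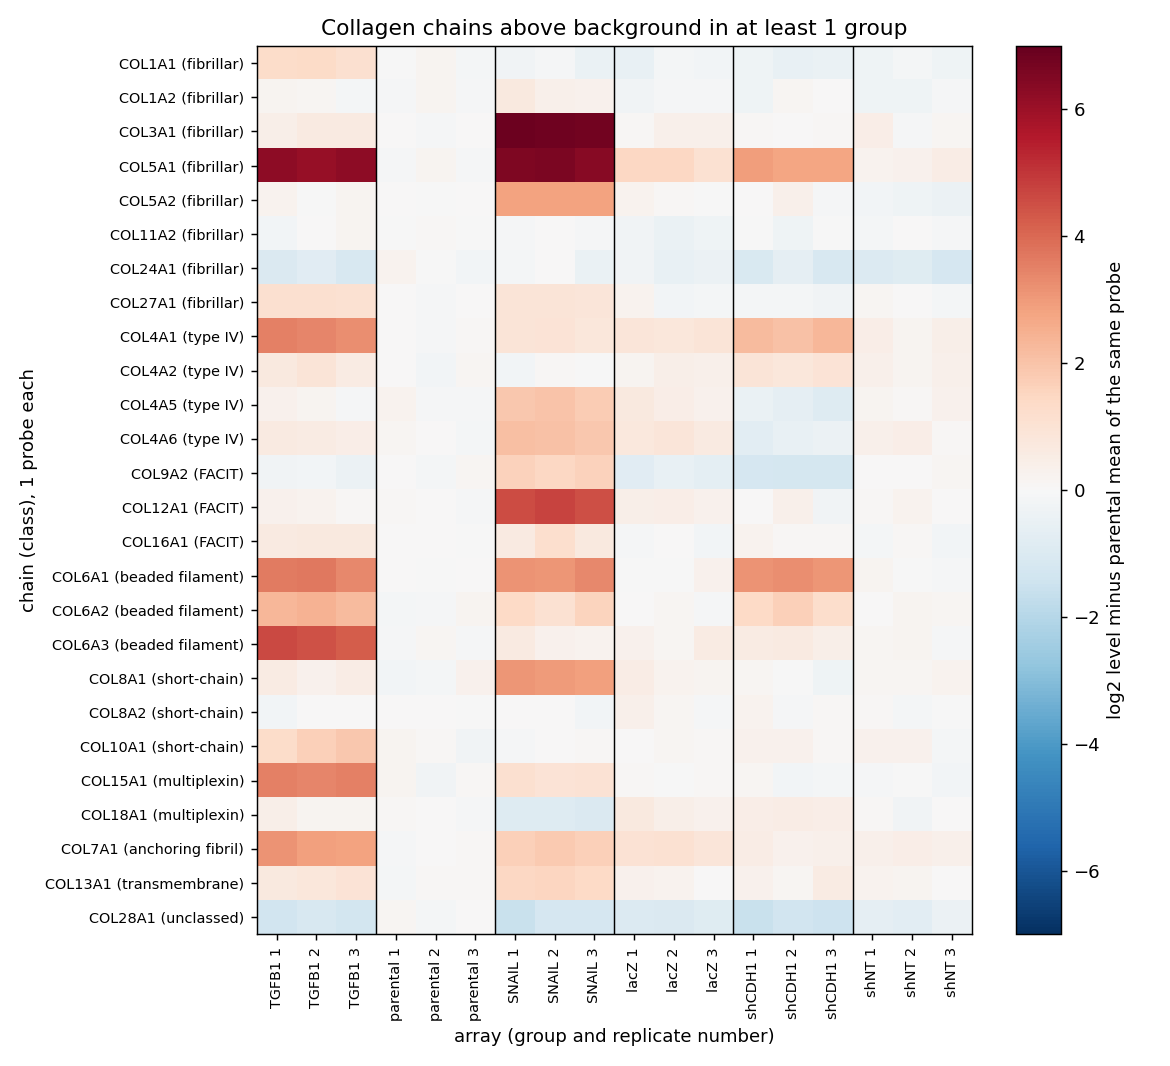
Each row is a collagen chain whose describing probe was above background in at least 1 group, each column 1 array, and the colour is the log2 level minus the mean of the 3 parental arrays for the same probe. COL5A1 is deep red in TGFB1 and SNAIL cells, COL3A1 and COL12A1 in SNAIL cells, and COL6A3 in TGFB1 cells, while COL6A1 is red in TGFB1, SNAIL and shCDH1 cells.

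In TGFB1 cells 18 collagen probes (24.7%) were higher than in parental cells and 3 (4.11%) were lower, where 9.81% of all probes were higher and 10.6% lower. The median difference of the 73 probes was 0.07 on the log2 scale, against 0 for all probes, so a minority of the probes rose. In SNAIL cells 24 probes (32.9%) were higher than in lacZ cells and 4 (5.48%) lower, where 12.5% of all probes were higher and 11.6% lower; the median difference was 0.06, against 0. In shCDH1 cells 9 probes (12.3%) were higher than in shNT cells and 6 (8.22%) lower, where 12.5% of all probes were higher and 10.3% lower. The shCDH1 shares were close to those of all probes, and the median difference was 0.03, against 0.01. All collagen probes carry a gene symbol, and of the 30113 probes that do, 12.4% were higher and 13.2% lower in TGFB1 cells, 16.4% and 14.6% in SNAIL cells, and 16.1% and 13.1% in shCDH1 cells. A probe counted as higher or lower at an adjusted p below 0.05 (limma, Benjamini-Hochberg over all 47321 probes tested). Where values were only floored and put on the log2 scale, 17 collagen probes were called for SNAIL and 6 for shCDH1. A called difference of at least 1 log2 unit was reached by 13 collagen probes for TGFB1 (17.8%), 15 for SNAIL (20.5%) and 5 for shCDH1 (6.85%), against 6.21%, 8.78% and 7.17% of the probes with a symbol.

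Each chain is described by whichever of its probes was brightest on average. For COL12A1, COL8A1 and COL19A1 that choice rests on the group where the probe is high: with the SNAIL arrays left out another probe of each would be the brightest, for COL19A1 also with the parental arrays left out. By these probes 16 chains passed the test in none of the 3 comparisons, and 3 chains, COL5A1, COL6A1 and COL6A2, were higher in all 3. Another 7 chains (COL3A1, COL7A1, COL8A1, COL13A1, COL15A1, COL16A1 and COL27A1) were higher in TGFB1 and SNAIL cells and not called in shCDH1 cells. COL1A2, COL5A3, COL12A1 and COL19A1 were called in SNAIL cells alone, all higher, and COL1A1 and COL10A1 in TGFB1 cells alone, both higher. COL4A1 and COL6A3 were higher in TGFB1 and shCDH1 cells and not called in SNAIL cells. COL28A1 was lower in all 3, in SNAIL cells by little (-0.35 ± 0.13, adjusted p = 0.0435), a call that was lost when any 1 lacZ array or SNAIL array 1 was left out (adjusted p = 0.0675 to 0.293). A call in one comparison and none in another is no test of their difference, which is given separately below.

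**Figure D2:**
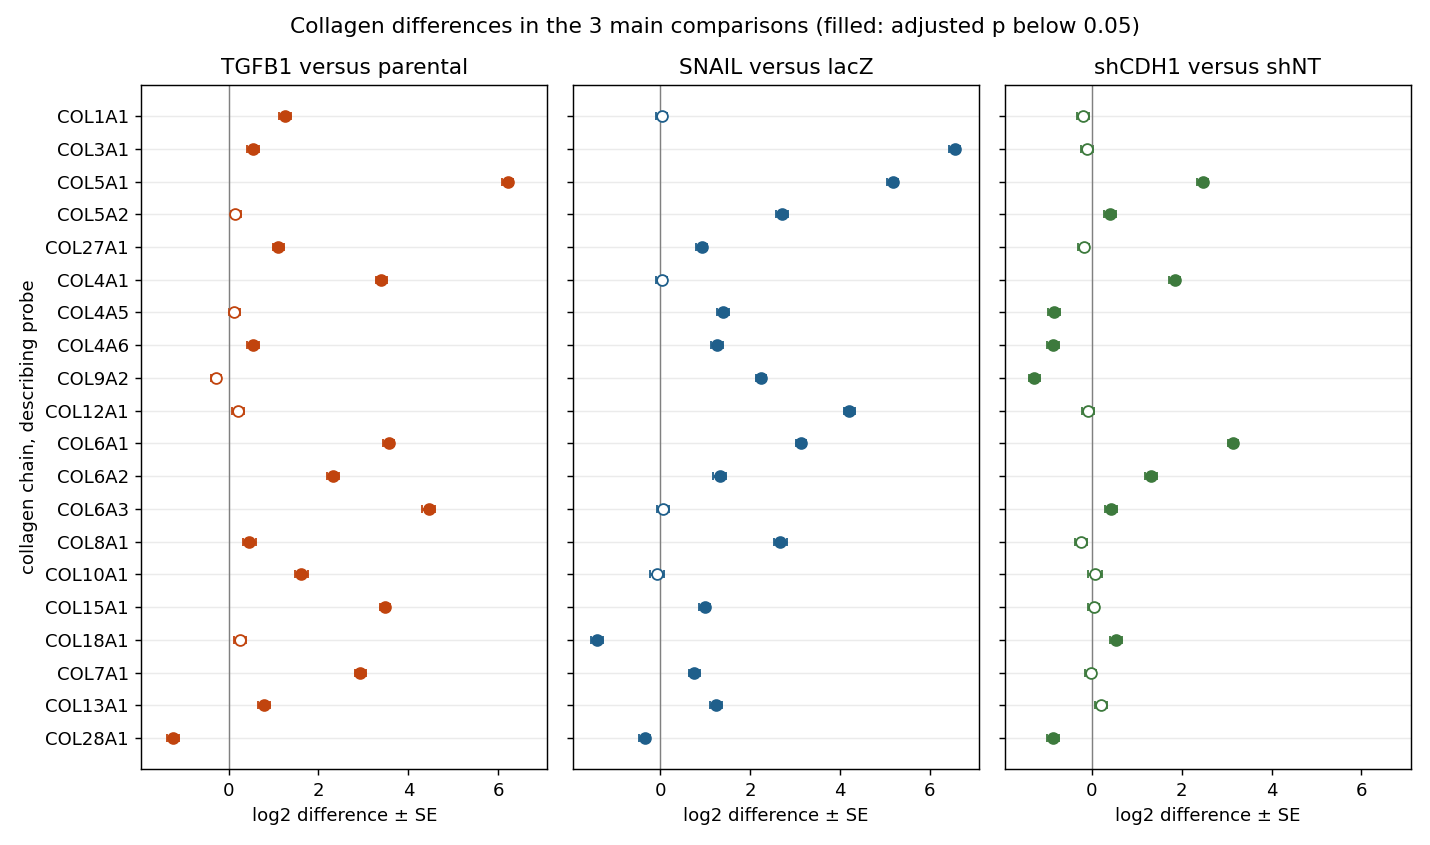
Each point is the log2 difference of 1 chain's describing probe with its standard error, for TGFB1 minus parental, SNAIL minus lacZ and shCDH1 minus shNT, filled where the adjusted p is below 0.05. COL5A1 lies at 6.21, 5.17 and 2.47, COL6A1 at 3.56, 3.13 and 3.14, and COL4A1 at 3.40, 0.03 and 1.84.

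Fibrillar chains rose most widely in SNAIL cells: 8 of their 18 probes (44.4%) were higher than in lacZ cells and 0 lower. Of all probes 12.5% were higher there. In TGFB1 cells 4 (22.2%) were higher than in parental cells and 1 lower, where 9.81% of all probes were higher. In shCDH1 cells 2 (11.1%) were higher than in shNT cells and 1 lower, near the 12.5% of all probes that were higher. COL5A1 and COL3A1 had the highest fibrillar differences. COL5A1 was high in both SNAIL and TGFB1 cells, and the 2 effects differed for COL5A1, COL3A1, COL5A2 and COL1A1.

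COL5A1 encodes a chain of type V collagen, which sets the start and diameter of collagen fibrils. Its probe read 12.98, 12.84 and 13.02 in TGFB1 cells, against 6.68, 6.91 and 6.64 in parental cells. The groups lay far apart, with every parental array at background, and the difference was 6.21 ± 0.12 (SE, adjusted p = 1.62e-24), at least 61.4-fold. In SNAIL cells it read 13.28, 13.31 and 13.12, against 8.17, 8.21 and 7.82 in lacZ cells, a difference of 5.17 ± 0.12 (adjusted p = 2.34e-23), or 36.1-fold with both groups above background. The shCDH1 arrays read 9.67, 9.52 and 9.52, against 6.98, 7.04 and 7.27 in shNT cells, a difference of 2.47 ± 0.12 (adjusted p = 7.19e-16), at least 5.52-fold. No array of a treated group overlapped its control. The TGFB1 effect exceeded the SNAIL effect by 1.04 ± 0.17 (adjusted p = 3.82e-05), but this order depended on the control. The lacZ cells were themselves 1.33 ± 0.12 above parental cells. Against parental cells the SNAIL cells were 6.5 higher, more than the 6.21 of TGFB1 cells. The shCDH1 effect was smaller than the TGFB1 effect by 3.73 ± 0.17 and than the SNAIL effect by 2.70 ± 0.17 (adjusted p = 4.28e-16 and 5.89e-13).

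COL3A1, the chain of type III collagen found in reticular fibres, was above background in SNAIL cells and in no other group. It read 13.10, 13.04 and 12.98 in SNAIL cells, against 6.29, 6.61 and 6.58 in lacZ cells. The difference was 6.55 ± 0.13 (adjusted p = 2.75e-25), at least 66.2-fold. In TGFB1 cells it read 6.63, 6.84 and 6.85, against 6.27, 6.16 and 6.26 in parental cells, a difference of 0.54 ± 0.13 (adjusted p = 0.00201) between groups that were both not above background, so no fold is given. With the values only floored and put on the log2 scale it was -0.03 (adjusted p = 0.898). The effects of TGFB1 and SNAIL on this probe differed by -6.01 ± 0.18 (adjusted p = 2.06e-20).

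COL5A2, the partner chain of COL5A1 in type V collagen, did not follow it in TGFB1 cells. It read 9.71, 9.68 and 9.68 in SNAIL cells, against 7.13, 6.97 and 6.85 in lacZ cells, at least 6.21-fold higher (2.71 ± 0.13, adjusted p = 1.19e-16). In TGFB1 cells it read 7.16, 6.85 and 7.09, against 6.91, 6.86 and 6.89 in parental cells. These overlapped, and the difference of 0.15 ± 0.13 was not called (adjusted p = 0.520). In shCDH1 cells it was 0.40 ± 0.13 above shNT cells (adjusted p = 0.0191), with neither group above background and no call when shCDH1 array 2 or shNT array 3 was left out (adjusted p = 0.105 to 0.174). The TGFB1 and SNAIL effects differed by -2.56 ± 0.18 (adjusted p = 2.64e-12).

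The type I chains, the main components of connective tissue fibres, had smaller differences than COL5A1 and COL3A1. COL1A1 read 8.69, 8.73 and 8.51 in TGFB1 cells, against 7.35, 7.55 and 7.25 in parental cells, 2.39-fold higher with both groups above background (1.26 ± 0.13, adjusted p = 8.47e-09). Its levels in SNAIL cells (7.12, 7.32 and 6.93) overlapped those in lacZ cells (6.86, 7.25 and 7.17). The TGFB1 effect on COL1A1 exceeded the SNAIL effect by 1.23 ± 0.18 (adjusted p = 6.64e-06). COL1A2 was not called in TGFB1 cells. It read 7.63, 7.28 and 7.22 in SNAIL cells, against 6.69, 6.85 and 6.85 in lacZ cells (0.58 ± 0.14, adjusted p = 0.00134, at least 1.31-fold), a call that was lost with a floor and log2 only (0.27, adjusted p = 0.527). The TGFB1 and SNAIL effects on this probe were not called different (-0.53 ± 0.19, adjusted p = 0.0532). A second COL1A2 probe differed by 1.19 ± 0.14 in the SNAIL comparison (adjusted p = 5.48e-08), and for that probe the TGFB1 effect was below the SNAIL effect by a called difference (-0.92 ± 0.20, adjusted p = 7.17e-04).

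Among the minor fibrillar chains, COL27A1 was at least 1.40-fold higher in TGFB1 than in parental cells (1.11 ± 0.12, adjusted p = 1.8e-08) and at least 1.21-fold higher in SNAIL than in lacZ cells (0.92 ± 0.12, adjusted p = 4.15e-07). Both COL27A1 calls were lost with a floor and log2 only (0.31 and 0.43, adjusted p = 0.165 and 0.0945). COL24A1 read 6.90, 7.08 and 6.77 in TGFB1 cells, against 8.12, 7.85 and 7.73 in parental cells. It was at least 1.88-fold lower in the TGFB1 cells (-0.98 ± 0.15, adjusted p = 7.62e-06), the only fibrillar probe lower in that comparison. The TGFB1 and SNAIL effects differed by -1.19 ± 0.21 (adjusted p = 7.84e-05). Cells with a control virus were low for COL24A1 too, with means of 6.90 in shNT and 7.51 in lacZ cells, against 7.90 in parental cells. COL11A1 shows how the probe matters: its describing probe read 6.84 on average in both SNAIL and lacZ cells. A second COL11A1 probe read 7.63, 7.58 and 7.49 in SNAIL cells, against 5.98, 6.17 and 6.10 in lacZ cells (1.48 ± 0.12, adjusted p = 1.98e-11, at least 1.49-fold higher). COL5A3 was 0.39 higher in SNAIL than in lacZ cells (adjusted p = 0.021), with neither group above background and no call when lacZ array 1 or 2 or SNAIL array 2 or 3 was left out (adjusted p = 0.0541 to 0.0872). COL2A1 and COL11A2 were not called in any of the 3 comparisons.

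**Figure D3:**
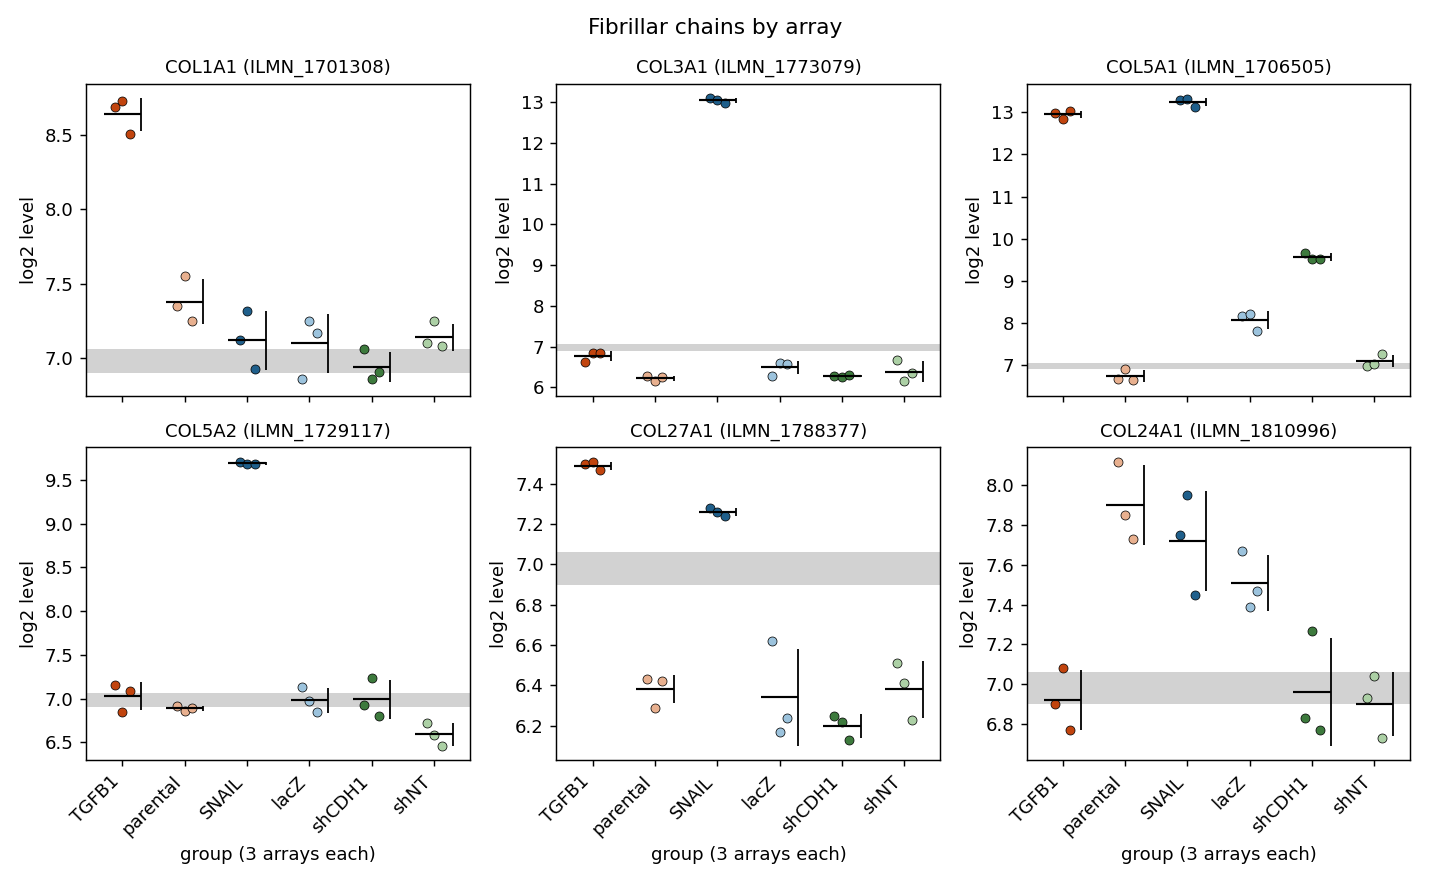
Log2 level of 6 fibrillar chains on each array by group, with the mean (horizontal line) and SD (vertical line) of 3 arrays; the grey band spans the background levels of the arrays, 6.90 to 7.06. COL3A1 and COL5A2 are high in SNAIL cells, COL5A1 in TGFB1, SNAIL and, lower, shCDH1 cells, and COL1A1 in TGFB1 cells.

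Markers of other cell types were read beside these fibrillar changes. Of 8 fibroblast markers, 2 were above background in SNAIL cells and 0 in lacZ cells, 2 in TGFB1 cells and 0 in parental cells, and 1 in shCDH1 cells and 0 in shNT cells. Their summed linear level was 4933 to 5210 in SNAIL cells, against 702 to 733 in lacZ cells. It was 1178 to 1339 in TGFB1 cells, against 761 to 786 in parental cells, and 1650 to 1817 in shCDH1 cells, against 715 to 744 in shNT cells. Of the 8, 3 were called higher in TGFB1 cells, 3 in SNAIL cells and 2 in shCDH1 cells, and 0 lower. Of all probes 9.81%, 12.5% and 12.5% were higher in these comparisons. The highest in SNAIL cells were LUM, a proteoglycan that binds collagen fibrils, with a mean of 11.47 in SNAIL cells and 6.51 in lacZ cells, and PDGFRB, a receptor kinase, with 10.71 and 6.34. DCN, THY1, FAP, DPT, TCF21 and PDGFRA were above background in no group, though FAP was called higher in TGFB1 cells (0.54, adjusted p = 0.0113) and PDGFRA in SNAIL and shCDH1 cells (0.36 each, adjusted p = 0.0206 and 0.0231). The smooth muscle marker CNN1 averaged 7.98 in SNAIL cells and 6.04 in lacZ cells, 1 of 4 such markers. Endothelial markers were above background in no group except PECAM1 in TGFB1 cells (1 of 4), and of 5 blood cell markers 1 to 3 were above it in every group. The part of these markers in the collagen results was not tested.

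The basement membrane chains split by treatment rather than moving as a class. COL4A1 and COL4A2, which assemble with each other, rose in TGFB1 and shCDH1 cells, while COL4A5 and COL4A6, which pair in another type IV network, rose in SNAIL cells and fell in shCDH1 cells. Of the 9 type IV probes 3 (33.3%) were higher and 0 lower in TGFB1 cells, and 3 (33.3%) were higher and 2 (22.2%) lower in SNAIL cells. In shCDH1 cells 2 (22.2%) were higher and 3 (33.3%) lower. Of all probes 9.81% were higher and 10.6% lower in TGFB1, 12.5% and 11.6% in SNAIL, and 12.5% and 10.3% in shCDH1 cells. COL4A3 and COL4A4, the other head-to-head pair, were not called in any of the 3.

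COL4A1 was above background in every group. It read 11.89, 11.77 and 11.57 in TGFB1 cells, against 8.35, 8.26 and 8.41 in parental cells, 10.5-fold higher (3.40 ± 0.12, adjusted p = 1.77e-19). In shCDH1 cells it read 10.58, 10.39 and 10.66, against 8.81, 8.53 and 8.75 in shNT cells, 3.59-fold higher (1.84 ± 0.12, adjusted p = 1.65e-13). Neither pair of groups overlapped. In SNAIL cells it read 9.22, 9.32 and 9.16, against 9.17, 9.16 and 9.26 in lacZ cells, and these overlapped (0.03 ± 0.12, adjusted p = 0.903). The SNAIL result depended on the control: against parental cells the SNAIL cells were 0.89 higher (adjusted p = 3.66e-07). The TGFB1 effect exceeded the SNAIL effect by 3.36 ± 0.16 and the shCDH1 effect by 1.55 ± 0.16 (adjusted p = 1.06e-15 and 1.94e-08).

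COL4A2, whose start lies next to that of COL4A1 in the stretch printed above, moved with it in TGFB1 and shCDH1 cells by less. It read 7.97, 8.16 and 7.84 in TGFB1 cells, against 7.29, 7.09 and 7.43 in parental cells, 1.65-fold higher (0.72 ± 0.13, adjusted p = 5.25e-05). The shCDH1 arrays read 8.18, 8.08 and 8.25, against 7.63, 7.45 and 7.64 in shNT cells, 1.51-fold higher (0.59 ± 0.13, adjusted p = 4.81e-04). In SNAIL cells it read 7.07, 7.35 and 7.23, against 7.48, 7.67 and 7.63 in lacZ cells. There it was 1.30-fold lower (-0.38 ± 0.13, adjusted p = 0.0259), a call that was lost when lacZ array 2 or 3 or SNAIL array 1 or 3 was left out (adjusted p = 0.0554 to 0.149) and against parental cells (-0.05, adjusted p = 0.837). With arrays left unnormalized its TGFB1 call was lost (0.38, adjusted p = 0.150). All 3 calls were lost with a floor and log2 only (0.13 for TGFB1, -0.36 for SNAIL and 0.51 for shCDH1, adjusted p = 0.561, 0.377 and 0.0934).

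COL4A5, whose mutations cause Alport syndrome, read 11.65, 11.76 and 11.56 in SNAIL cells, against 10.48, 10.24 and 10.09 in lacZ cells, 2.62-fold higher (1.39 ± 0.13, adjusted p = 1.04e-09). In shCDH1 cells it read 9.30, 9.17 and 8.89, against 9.98, 9.86 and 10.07 in shNT cells, 1.80-fold lower (-0.85 ± 0.13, adjusted p = 9.13e-06). In TGFB1 cells (10.09, 10.00 and 9.69) it overlapped parental cells (10.01, 9.69 and 9.69). The SNAIL and shCDH1 effects on COL4A5 differed by 2.24 ± 0.19 (adjusted p = 1.43e-10). A second COL4A5 probe was called in the same directions, 0.99 ± 0.16 in SNAIL cells (adjusted p = 2.00e-05) and -0.53 ± 0.16 in shCDH1 cells (adjusted p = 0.0171), the last with overlapping arrays. With a floor and log2 only the shCDH1 call of the describing probe was lost (-0.64, adjusted p = 0.0636).

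COL4A6, the head-to-head neighbour of COL4A5, read 9.10, 9.06 and 8.88 in SNAIL cells, against 7.76, 7.84 and 7.65 in lacZ cells, 2.41-fold higher (1.27 ± 0.13, adjusted p = 2.25e-09). The shCDH1 arrays read 6.29, 6.48 and 6.60, against 7.39, 7.47 and 7.08 in shNT cells, at least 1.24-fold lower (-0.86 ± 0.13, adjusted p = 3.32e-06). In TGFB1 cells it read 7.63, 7.58 and 7.50, against 7.14, 7.01 and 6.89 in parental cells, at least 1.42-fold higher (0.55 ± 0.13, adjusted p = 0.0013). The TGFB1 call was lost without normalization (0.25, adjusted p = 0.368) and with the parental, lacZ and shNT cells pooled as control (0.21, adjusted p = 0.160). With a floor and log2 only the TGFB1 and shCDH1 calls were both lost (adjusted p = 0.991 and 0.324). The SNAIL and shCDH1 effects differed by 2.13 ± 0.18 (adjusted p = 1.36e-10). A further COL4A6 probe, not above background in either group, was lower in SNAIL cells (-0.37, adjusted p = 0.0187), which made COL4A6 the only 1 of the 18 chains with several probes to have opposite calls.

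**Figure D4:**
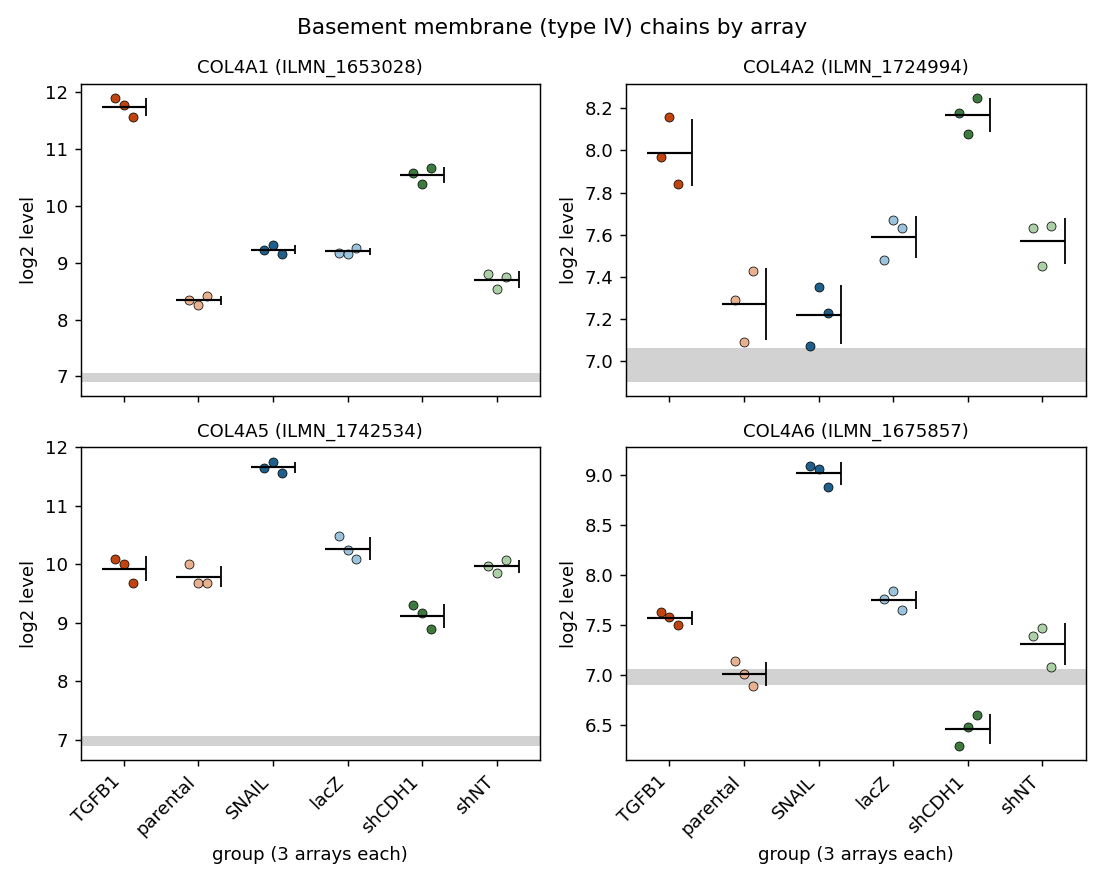
Log2 level of 4 type IV chains on each array by group, with the mean and SD of 3 arrays and a grey band from 6.90 to 7.06 for background. COL4A1 and COL4A2 are above their controls in TGFB1 and shCDH1 cells, while COL4A5 and COL4A6 are above lacZ cells in SNAIL cells and below shNT cells in shCDH1 cells.

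Of the type VI chains COL6A1 and COL6A2 rose in all 3 comparisons. Of the 13 type VI probes 5, 3 and 4 (38.5%, 23.1% and 30.8%) were higher in TGFB1, SNAIL and shCDH1 cells and 0 lower. Of all probes 9.81%, 12.5% and 12.5% were higher. COL6A1, COL6A2 and COL6A3 assemble with each other into one type VI molecule and were above background in none of the parental, lacZ and shNT groups. COL6A1 and COL6A2 were above it in TGFB1, SNAIL and shCDH1 cells, and COL6A3 in TGFB1 cells. COL6A5 and COL6A6, the late-named relatives of COL6A3, were not called.

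COL6A1 read 10.23, 10.29 and 10.00 in TGFB1 cells, against 6.62, 6.60 and 6.62 in parental cells, at least 8.96-fold higher (3.56 ± 0.12, adjusted p = 2.66e-19). In SNAIL cells it read 9.77, 9.71 and 9.95, against 6.57, 6.58 and 6.89 in lacZ cells, at least 7.06-fold higher (3.13 ± 0.12, adjusted p = 2.46e-18). In shCDH1 cells it read 9.78, 9.85 and 9.71, against 6.79, 6.58 and 6.53 in shNT cells, at least 6.79-fold higher (3.14 ± 0.12, adjusted p = 2.85e-18). No arrays overlapped. The 3 effects were not called different from each other (TGFB1 minus SNAIL 0.43 ± 0.18, adjusted p = 0.0978; TGFB1 minus shCDH1 0.41 ± 0.18, adjusted p = 0.106; SNAIL minus shCDH1 -0.01 ± 0.18, adjusted p = 0.979).

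COL6A2 read 8.59, 8.71 and 8.47 in TGFB1 cells, against 6.16, 6.22 and 6.45 in parental cells, at least 3.0-fold higher (2.32 ± 0.14, adjusted p = 4.73e-14). It was 1.32 ± 0.14 higher in SNAIL cells (7.66, 7.35 and 7.85) than in lacZ cells (6.30, 6.43 and 6.18), at least 1.55-fold. It was also 1.32 ± 0.14 higher in shCDH1 cells (7.68, 7.95 and 7.51) than in shNT cells (6.32, 6.49 and 6.39), at least 1.63-fold. All arrays of the treated groups lay above their controls. A second COL6A2 probe was called higher in the same 3 comparisons (1.81, 0.83 and 0.88), and another was not called.

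COL6A3 was high in TGFB1 cells. It read 11.04, 10.88 and 10.64 in TGFB1 cells, against 6.30, 6.56 and 6.33 in parental cells, at least 14.4-fold higher (4.45 ± 0.14, adjusted p = 4.16e-20), and a second probe differed by 3.88 ± 0.12 (adjusted p = 2.11e-20). In SNAIL cells it read 7.05, 6.69 and 6.62, against 6.68, 6.52 and 6.99 in lacZ cells, with overlap and no call. In shCDH1 cells the describing probe was 0.43 ± 0.14 above shNT cells (adjusted p = 0.0275), with neither group above background. That call was lost when shCDH1 array 1 or 2 or shNT array 3 was left out (adjusted p = 0.0775 to 0.143). The second probe was not called in shCDH1 cells (-0.04 ± 0.12, adjusted p = 0.877). For the describing probe the TGFB1 effect exceeded the SNAIL effect by 4.40 ± 0.20 and the shCDH1 effect by 4.02 ± 0.20 (adjusted p = 2.88e-16 and 2.4e-15).

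**Figure D5:**
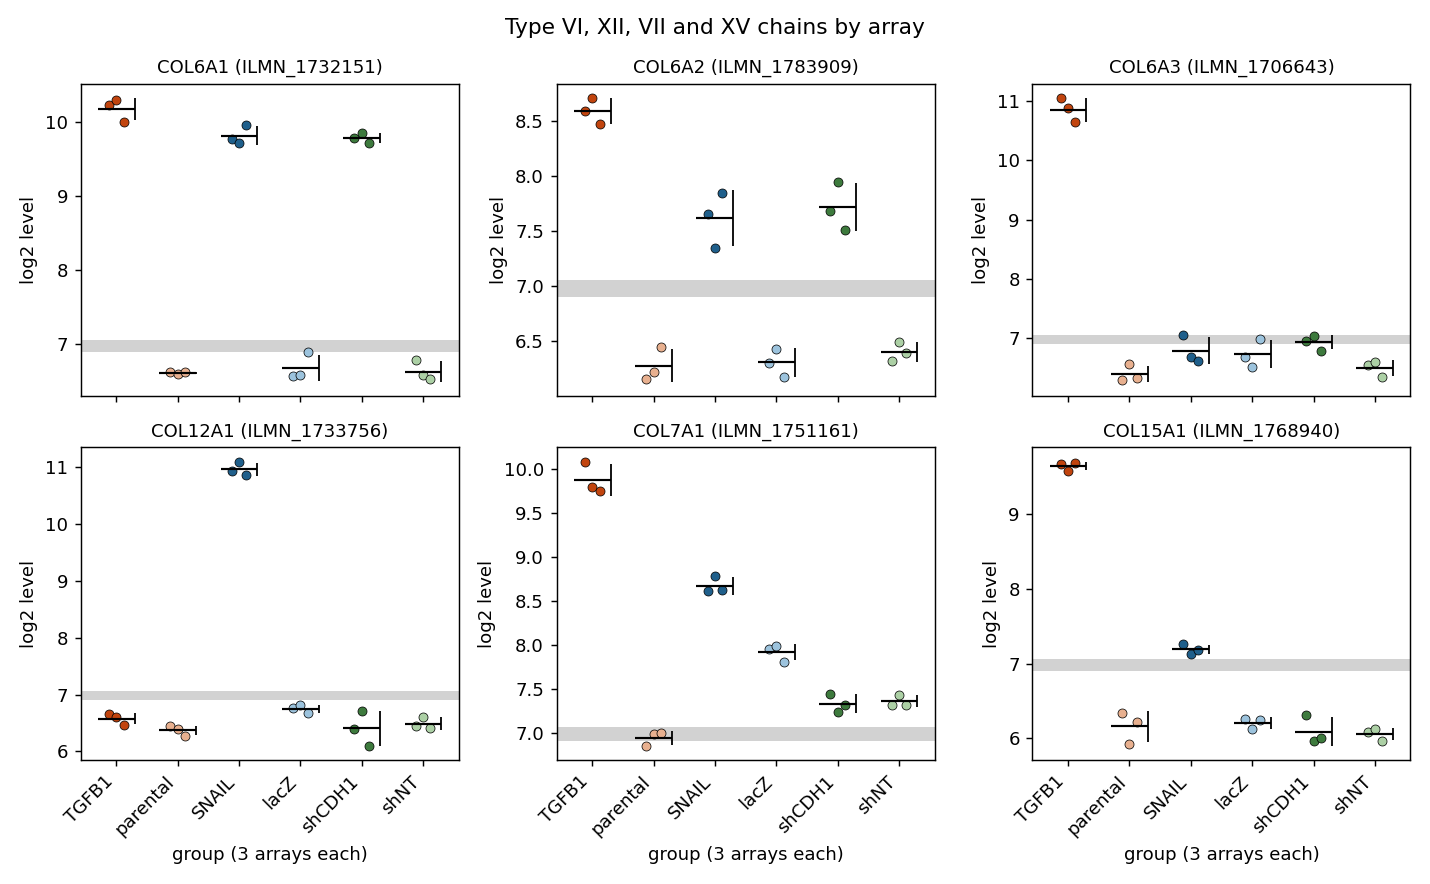
Log2 level of 6 chains of other classes on each array by group, with the mean and SD of 3 arrays and a grey band from 6.90 to 7.06 for background. COL6A1 and COL6A2 are above background in TGFB1, SNAIL and shCDH1 cells, COL6A3 in TGFB1 cells, COL12A1 in SNAIL cells, and COL7A1 and COL15A1 are highest in TGFB1 cells.

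The fibril-associated chains sit on the surface of fibrils. In SNAIL cells 5 of their 15 probes were higher and 0 lower. In TGFB1 cells 1 was higher and 1 lower, and in shCDH1 cells 0 were higher and 1 lower. The shares higher were 33.3% in SNAIL, 6.67% in TGFB1 and 0% in shCDH1 cells, against 12.5%, 9.81% and 12.5% of all probes. Only the SNAIL share was thus above that of all probes. The 5 probes behind it include those of COL19A1 and COL21A1, where neither group was above background. Their calls were lost when any 1 lacZ array was left out. COL12A1, the type XII chain of dense connective tissue, read 10.93, 11.10 and 10.86 in SNAIL cells, against 6.77, 6.81 and 6.68 in lacZ cells. It was at least 15.7-fold higher (4.21 ± 0.13, adjusted p = 8.6e-21) and this probe was above background in no other group. The TGFB1 and SNAIL effects on COL12A1 differed by -4.00 ± 0.18 (adjusted p = 3.07e-16). A second COL12A1 probe, the brighter one outside SNAIL cells, was above background in parental and shCDH1 cells. It read 7.07, 7.03 and 6.86 in SNAIL cells, against 7.16, 7.18 and 6.90 in lacZ cells, and was not called (-0.09 ± 0.14, adjusted p = 0.731).

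COL9A2, a type IX chain best known from cartilage, moved in opposite directions under SNAIL and shCDH1. It read 9.03, 8.84 and 9.0 in SNAIL cells, against 6.58, 6.87 and 6.72 in lacZ cells, at least 3.91-fold higher (2.24 ± 0.12, adjusted p = 1.62e-15). The shCDH1 arrays read 6.22, 6.17 and 6.16, against 7.41, 7.43 and 7.54 in shNT cells, at least 1.37-fold lower (-1.28 ± 0.12, adjusted p = 5.29e-10). The SNAIL and shCDH1 effects differed by 3.52 ± 0.16 (adjusted p = 4.5e-16). The lacZ cells were themselves lower than parental cells for this probe (-0.68 ± 0.12, adjusted p = 1.32e-04).

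COL16A1, another fibril-associated chain, was 1.58-fold higher in TGFB1 than in parental cells (0.66 ± 0.13, adjusted p = 2.62e-04; 0.34 and adjusted p = 0.212 without normalization, 0.09 and adjusted p = 0.679 with a floor and log2 only) and at least 1.86-fold higher in SNAIL than in lacZ cells (0.91 ± 0.13, adjusted p = 1.78e-06). COL21A1 was lower in TGFB1 cells (-0.57, adjusted p = 0.00104) and higher in SNAIL cells (0.37, adjusted p = 0.0324), and COL19A1 was higher in SNAIL cells (0.41, adjusted p = 0.0374). None of the groups compared was above background for COL21A1 or COL19A1. Both SNAIL calls were lost when any 1 lacZ array or SNAIL array 1 was left out, COL19A1 also without SNAIL array 3 (adjusted p = 0.0562 to 0.322 for both chains), and COL21A1 was -0.20 in SNAIL against parental cells. The TGFB1 call of COL21A1 was lost with the parental, lacZ and shNT cells pooled as control (-0.28, adjusted p = 0.0526). The lacZ cells were lower than parental cells for COL21A1 too (-0.57). COL9A1, COL9A3, COL14A1, COL20A1 and COL22A1 were not called in any of the 3 comparisons.

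The short-chain collagens form sheet-like networks. COL8A1, made by vessel wall cells in the body, read 9.21, 9.10 and 9.01 in SNAIL cells, against 6.65, 6.35 and 6.32 in lacZ cells, at least 4.33-fold higher (2.67 ± 0.14, adjusted p = 1.97e-15). A second COL8A1 probe differed by 1.81 ± 0.13 in that comparison and another was not called. Its TGFB1 call (0.46 ± 0.14, adjusted p = 0.0169) joined overlapping groups that were not above background, and was lost when parental array 1 or 2 or TGFB1 array 1 or 3 was left out (adjusted p = 0.0552 to 0.119); it was -0.07 with a floor and log2 only. COL10A1, the type X chain of hypertrophic cartilage, read 7.30, 7.68 and 7.89 in TGFB1 cells, against 6.19, 6.07 and 5.74 in parental cells, at least 1.53-fold higher (1.62 ± 0.15, adjusted p = 6.54e-10). It was above background in no other group. COL8A2 was above background in every group and not called in any comparison.

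The anchoring fibril chain and the multiplexins lie in or beside basement membranes. COL7A1, which ties the epidermal basement membrane to the dermis, read 10.09, 9.80 and 9.75 in TGFB1 cells, against 6.85, 6.99 and 7.0 in parental cells, at least 7.31-fold higher (2.93 ± 0.12, adjusted p = 1.04e-17). In SNAIL cells it read 8.61, 8.79 and 8.63, against 7.95, 7.99 and 7.81 in lacZ cells, 1.69-fold higher (0.76 ± 0.12, adjusted p = 9.6e-06; 0.53 and adjusted p = 0.101 with a floor and log2 only). In shCDH1 cells (7.44, 7.23 and 7.32) it overlapped shNT cells (7.31, 7.43 and 7.32). The TGFB1 effect exceeded the SNAIL effect by 2.18 ± 0.17 (adjusted p = 3.06e-11).

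COL15A1, a proteoglycan-like multiplexin, read 9.67, 9.57 and 9.68 in TGFB1 cells, against 6.34, 5.92 and 6.22 in parental cells, at least 6.20-fold higher (3.48 ± 0.12, adjusted p = 3.2e-19). It was 0.99 ± 0.12 higher in SNAIL cells (7.26, 7.13 and 7.18) than in lacZ cells (6.26, 6.12 and 6.24), at least 1.15-fold, a call lost with a floor and log2 only (0.44, adjusted p = 0.116). COL18A1, the precursor of endostatin, was the one chain with a fall of at least 1 log2 unit in SNAIL against lacZ cells. It read 6.99, 6.99 and 6.85 in SNAIL cells, against 8.58, 8.28 and 8.17 in lacZ cells, at least 2.57-fold lower (-1.40 ± 0.13, adjusted p = 3.47e-10). The lacZ cells were themselves above parental cells (0.47 ± 0.13, adjusted p = 0.0153). Against parental cells the SNAIL difference was -0.93 (adjusted p = 6.9e-07). In shCDH1 cells COL18A1 was 1.46-fold higher than in shNT cells (0.54 ± 0.13, adjusted p = 0.00142). That call was lost with a floor and log2 only (0.49, adjusted p = 0.143). The SNAIL and shCDH1 effects differed by -1.94 ± 0.18 (adjusted p = 9.74e-10). A second COL18A1 probe, above background in no group, was not called in SNAIL cells (-0.14, adjusted p = 0.529) or shCDH1 cells (0.19, adjusted p = 0.356).

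Of the transmembrane chains COL13A1 was 1.73-fold higher in TGFB1 than in parental cells (0.79 ± 0.13, adjusted p = 1.4e-05; 0.47 and 0.21 without normalization and with a floor only, adjusted p = 0.0964 and 0.375) and 2.36-fold higher in SNAIL than in lacZ cells (1.24 ± 0.13, adjusted p = 3.79e-09). COL23A1 and COL25A1 were not called. COL28A1 read 6.17, 6.41 and 6.21 in TGFB1 cells, against 7.64, 7.36 and 7.51 in parental cells, at least 1.47-fold lower (-1.24 ± 0.13, adjusted p = 7.14e-09). Parental cells were the only group above background for COL28A1, and the lacZ and shNT cells were lower than parental cells too (-0.94 and -0.59). With a floor and log2 only COL28A1 lost its SNAIL and shCDH1 calls (-0.29 and -0.32, adjusted p = 0.430 and 0.323). A second COL28A1 probe, above background in no group, was not called for TGFB1, SNAIL or shCDH1 (-0.11, -0.05 and 0.14, adjusted p = 0.704, 0.869 and 0.6). COL26A1 was not called.

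Differences between the effects were tested in the same fit. Of the 73 collagen probes 28 (38.4%) had different TGFB1 and SNAIL effects, 12 with a higher TGFB1 effect and 16 with a lower one, where 18.4% of all probes and 24.0% of those with a symbol differed. TGFB1 and shCDH1 effects differed for 20 probes (27.4%), where 19.6% of all probes and 24.9% of those with a symbol differed, in either direction a share near that of the collagens. By direction 18 collagen probes (24.7%) were higher for TGFB1 and 2 (2.74%) lower, where 4346 of all 47321 probes were higher and 4931 lower. SNAIL and shCDH1 effects differed for 24 probes (32.9%), where 20.6% of all probes and 26.4% of those with a symbol differed. Of the collagen probes 19 (26%) were higher for SNAIL and 5 (6.85%) lower, where 4841 of all 47321 probes were higher and 4928 lower. For the 13 type VI probes 0 differed between SNAIL and shCDH1, against the 20.6% of all probes, but 8 of the 13 were above background in no group. For the 18 fibrillar probes 6 (33.3%) had a lower TGFB1 than SNAIL effect and 2 (11.1%) a higher one. Of all 47321 probes 4513 had a lower and 4211 a higher one.

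The control viruses moved a few collagens against parental cells, which bears on chains read against them. In lacZ cells 7 collagen probes (9.59%) were higher than in parental cells and 3 (4.11%) lower, where 4.07% of all probes were higher and 3.8% lower (5.27% and 5.09% of those with a symbol). In shNT cells 3 (4.11%) were higher and 2 (2.74%) lower, where 6.88% of all probes were higher and 7.13% lower (7.64% and 9.4% of those with a symbol). Of the 9 type IV probes 4 were higher in lacZ than in parental cells. COL5A1 was at least 2.08-fold higher in lacZ than in parental cells (1.33 ± 0.12, adjusted p = 3.83e-09), the only lacZ difference of at least 1 log2 unit. COL7A1 was at least 1.88-fold higher (0.97 ± 0.12, adjusted p = 6.88e-07) and COL4A1 1.81-fold higher (0.85 ± 0.12, adjusted p = 3.87e-06) in lacZ than in parental cells. COL24A1 was at least 1.84-fold lower in shNT than in parental cells (-1.0 ± 0.15, adjusted p = 2.3e-05). Both comparisons and the TGFB1 comparison share the 3 parental arrays.

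Genes that make and handle collagen were counted beside the chains, by each gene's brightest probe. Counts in lists this small are to be read against the shares of probes with a symbol given above, 12.4% to 16.4% higher and 13.1% to 14.6% lower, and no list count near them is a result about its list. Of 19 measured folding and modification genes 8 were higher and 2 lower in TGFB1 cells, 11 higher and 1 lower in SNAIL cells, and 7 higher and 5 lower in shCDH1 cells. Their median log2 differences were 0.25, 0.43 and 0.17, against 0, 0 and 0.01 for all probes. The prolyl hydroxylases P3H1 and P3H2 were higher in all 3. In TGFB1, SNAIL and shCDH1 cells P3H1 was higher by 1.25, 2.35 and 1.56, and P3H2 by 2.73, 1.64 and 1.65. P3H2 averaged 8.18 in parental, 11.19 in lacZ and 9.79 in shNT cells, so the virus controls were above parental cells too. The lacZ mean was also above the 10.91 of TGFB1 cells. CRTAP, which forms a complex with P3H1, averaged 11.63 ± 0.86 in shCDH1 cells and 9.60 ± 0.75 in shNT cells (SD, n = 3 each; 2.03, adjusted p = 9.65e-07), the widest spread of the list. That p-value rests on a spread shared by all 6 groups (SE 0.28), and the other groups had SDs of 0.07 to 0.23. It therefore understates the spread of the shCDH1 and shNT arrays. P4HA2, a subunit of the prolyl hydroxylase that stabilizes the helix, was 3.20-fold higher in TGFB1 cells (1.68, adjusted p = 4.64e-13) and was not called in SNAIL or shCDH1 cells. SERPINH1, the collagen chaperone of the endoplasmic reticulum, averaged 11.27 in SNAIL cells and 9.16 in lacZ cells (2.11, adjusted p = 2.65e-13). SERPINH1 was lower in TGFB1 cells (-0.57, adjusted p = 0.00245) and in shCDH1 cells (-1.09, adjusted p = 2.46e-07).

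Of 8 propeptide-removal genes 2 were higher and 0 lower in TGFB1 cells, 1 higher and 1 lower in SNAIL cells, and 1 higher and 3 lower in shCDH1 cells. PCOLCE2, which speeds the release of the C-terminal propeptide, was higher in all 3, by 2.71, 1.85 and 2.39 (adjusted p = 4.11e-18, 1.56e-14 and 4.81e-17). PCOLCE2 averaged 8.94 in parental, 10.44 in lacZ and 9.45 in shNT cells, so the virus controls were above parental cells too. TLL1, one of the proteases that removes this propeptide, was lower in SNAIL cells (-1.19, adjusted p = 4.24e-08) and in shCDH1 cells (-1.96, adjusted p = 1.76e-12). Of 5 cross-linking oxidases 3 were higher and 0 lower in TGFB1 cells, 2 higher and 1 lower in SNAIL cells, and 1 higher and 2 lower in shCDH1 cells. LOX averaged 9.64 ± 0.16 in TGFB1 cells and 6.58 ± 0.02 in parental cells (SD, n = 3 each; 3.05, adjusted p = 2.09e-17). The virus controls were above parental cells for LOX too, with means of 8.35 in lacZ and 8.07 in shNT cells. LOXL4 averaged 9.58 ± 0.08 in SNAIL cells and 7.13 ± 0.04 in lacZ cells (SD, n = 3 each; 2.45, adjusted p = 1.43e-15), and was not called in TGFB1 cells.

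Of 9 collagen receptor genes 2 were higher and 2 lower in TGFB1 cells, 4 higher and 2 lower in SNAIL cells, and 1 higher and 3 lower in shCDH1 cells. The collagen-binding integrin subunits changed in opposite ways in SNAIL cells. ITGA1 (2.53, adjusted p = 6.99e-15) and ITGA11 (2.08, adjusted p = 6.04e-14) were higher, with lacZ cells not above background for either. ITGA1 averaged 9.22 in SNAIL, 6.69 in lacZ and 7.90 in parental cells, so its lacZ control was below parental cells. ITGA2, the form of epithelia and platelets, was 4.0-fold lower in SNAIL cells (-2.00, adjusted p = 2.32e-10). ITGA2 was 8.22-fold lower in shCDH1 cells (-3.04, adjusted p = 2.77e-14) and 1.66-fold higher in TGFB1 cells (0.73, adjusted p = 0.00254). It averaged 10.97 in parental, 9.52 in lacZ and 10.08 in shNT cells, so the virus controls were below parental cells. The receptor kinase DDR1 was lower in all 3 (-0.72, -1.04 and -2.40). Of 5 genes of collagen breakdown 2 were higher in TGFB1 cells, 1 higher in SNAIL cells and 1 lower in shCDH1 cells. MMP1, the interstitial collagenase, was 2.05 higher in TGFB1 than in parental cells (adjusted p = 1.59e-14) and 1.31 higher in SNAIL than in lacZ cells (adjusted p = 2.1e-10), with parental and lacZ cells not above background.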

How the data were processed

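Total RNA was labelled as biotinylated complementary RNA for Illumina arrays, per the labels. The deposited table gives linear intensity values for 47323 probes on 18 arrays, which the authors had neither log transformed nor scaled between arrays, as far as the values show; scanner, software and detection calls are not given in the sources used here. Intensities were corrected with limma 3.58.1 normexp (offset 50) in R 4.3.3, put on the log2 scale by this re-analysis, not by the authors, and quantile normalized. The 2 probes with a value of 0, no collagen among them, were left out, leaving 47321.

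Symbols came from the platform annotation (30121 probes listed, 30113 with 1 symbol, 8 with several, 17202 not listed), and the 73 collagen probes all matched RefSeq. A single limma fit of 6 group means, with 12 residual degrees of freedom, and an intensity trend gave every comparison, two-sided, with Benjamini-Hochberg adjustment over all probes. Chains chosen to be named had a called describing probe that differed by at least 1 log2 unit without overlap in a main comparison (20 chains). Array values are printed for these except COL13A1 and COL27A1. Array values of COL1A2, COL4A2, COL24A1 and second probes of COL11A1 and COL12A1 were added after their values were seen. Where 1 group was not above background, the fold is the bright group's mean over the dim group's mean of, per array, the higher of the background level and the probe itself. The members and gene lists were chosen with earlier results of these data known. Equally numbered arrays deviated together at r = -0.10 to 0.19 and the others at r = -0.29 to 0.18, and numbers were not used as pairs. Precision is limited by having 3 arrays per group.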

Additional observations from a re-analysis of the deposited data

How the results depend on the processing

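Detection p-values were not used here, and the 40 collagen probes never above background give no measured level. Left-out arrays gave 20 to 21 collagen probes called for TGFB1 (21 with every array), 23 to 26 for SNAIL (28), 12 to 15 for shCDH1 (15), 7 to 10 for lacZ against parental (10), 3 to 5 for shNT against parental (5), and 27 to 29, 18 to 21 and 21 to 23 for TGFB1 minus SNAIL (28), TGFB1 minus shCDH1 (20) and SNAIL minus shCDH1 effects (24). The count of 5 for shNT against parental became 3 without parental array 1, and 3 each without normalization between arrays, with median centring and with arrays of one description number averaged. With a floor and log2 only, counts fell to 17 for SNAIL, 6 for shCDH1, 2 for lacZ, 2 for shNT, 10 for TGFB1 minus shCDH1 and 14 for SNAIL minus shCDH1. With probes above the median probe only, SNAIL had 18, by construction from fewer probes. The cause of the other losses was not tested. The floor setting moved the median of all probes by -0.26, -0.11 and 0.13 for TGFB1, SNAIL and shCDH1, and no normalization moved it by -0.2 for TGFB1.

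For single chains, 1258 values kept their side of the threshold, 51 of them not called and with another sign or 0, 84 lost and 9 gained a call, and 5 reversed. With the floor, COL3A1 and COL8A1 in TGFB1 cells became -0.03 (adjusted p = 0.898) and -0.07 (0.705). With parental cells as control, COL21A1 became -0.20 in SNAIL cells (0.289), and COL24A1 and COL7A1 became -0.94 (1.2e-05) and 0.38 (0.018) in shCDH1 cells, from 0.06 and -0.03 against shNT. Averaging arrays of one description number lost 8 single-chain calls (COL8A1 for TGFB1, COL4A2, COL5A3, COL19A1, COL21A1 and COL28A1 for SNAIL, COL5A2 and COL6A3 for shCDH1). The titles' replicate numbers were not used as pairs in the main fit. A fit with a replicate block called 21, 28, 15, 11, 6, 28, 20 and 24 collagen probes in the 8 contrasts, in the order above, against 21, 28, 15, 10, 5, 28, 20 and 24 without it. SNAIL against parental cells gave 28 calls, 23 of them shared with those against lacZ; shCDH1 against parental cells gave 17, 13 of them shared.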
